A study of Gallus gallus with 32 samples.

Results

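Cell cycle and replication genes were followed in the livers of broilers (meat chickens) of the Arbor Acres line across 4 amounts of added dietary arginine. The set was a named list of 41 symbols, chosen by function with earlier results of these data known. Of them, 40 had a value in the deposited table of 25619 genes. Of these 40, 9 encode replication proteins (MCM2 to MCM6, CDC6, PCNA, RRM1 and RRM2) and 31 encode proteins of mitosis. By symbol 38 matched, CCNB2 and KIF4A were read from the genes now named CCNB1 and KIF4B (each pairs with the older symbol in the reference table), and AURKA was not analysed here.

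Dividing cells express these genes in waves. MCM proteins are loaded onto DNA by CDC6 before replication, PCNA clamps the polymerases to the template, and ribonucleotide reductase (RRM1 with RRM2) makes the deoxynucleotides. CDK1 with its cyclins then drives mitosis, in which kinetochore proteins, kinesins, condensins and cytokinesis proteins move and separate the chromosomes. Most hepatocytes of a resting liver are out of the cycle, and the liver also holds immune, endothelial and blood cells that can divide. In RNA from whole tissue, fewer cycling cells and less RNA per cycling cell cannot be told apart.

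Messenger RNA was sequenced in 32 liver libraries, 8 each from control (0 g/kg added arginine) and from diets with 1.8, 9 and 18 g/kg added arginine. The breed was shared by every diet, and bird age and sex are not given in the sources used here. The labels do not say whether each library is a separate bird, and a liver below means 1 library. Values are TPM, the share of a library's transcripts scaled to a fixed total after correction for transcript length, so genes can be compared per length. Counts were not used here, so sequencing depth is unknown. Listed TPM summed to between 998707 and 999281 per library, 10353 to 11678 genes reached 1 TPM, and the hepatocyte product ALB stood between 50284 and 131355 TPM. HINTW, a W-linked transcript that marks female birds, was above 0 in 2 control, 3 of the 1.8 g/kg, 4 of the 9 g/kg and 3 of the 18 g/kg libraries, and was listed at 0 in the other 20.

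The members were low to moderate transcripts, and those tested varied more between libraries of one diet than most tested liver genes did. PCNA was the highest, at a mean of 62.1 TPM over the 32 libraries, followed by CDK1 at 14.6 TPM, RRM2 at 14.0 TPM, CCNB1 at 9.67 TPM and MCM2 at 9.09 TPM. The lowest was CENPF, a kinetochore protein, at 0.32 TPM. Tests covered 11339 genes whose mean reached 1 TPM or more, and 32 members passed that filter. CDC6, MELK, CENPE, CENPF, KIF18A, ASPM, ANLN and ECT2 did not pass, and their estimates come from the fit without it. The standard deviation of log2(TPM + 1) within a diet had a median of 0.80 over the 32 tested members (0.52 to 1.30), against 0.33 over all tested genes. RRM2 had the widest spread among the tested members and MAD2L1 the narrowest. Of those under the filter, CENPF had an SD of 0.34, close to that median of all tested genes. Adding 1 to TPM this low narrows the SD, and CENPF ran from 0.07 to 2.3 TPM over the libraries.

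**Figure D1:**
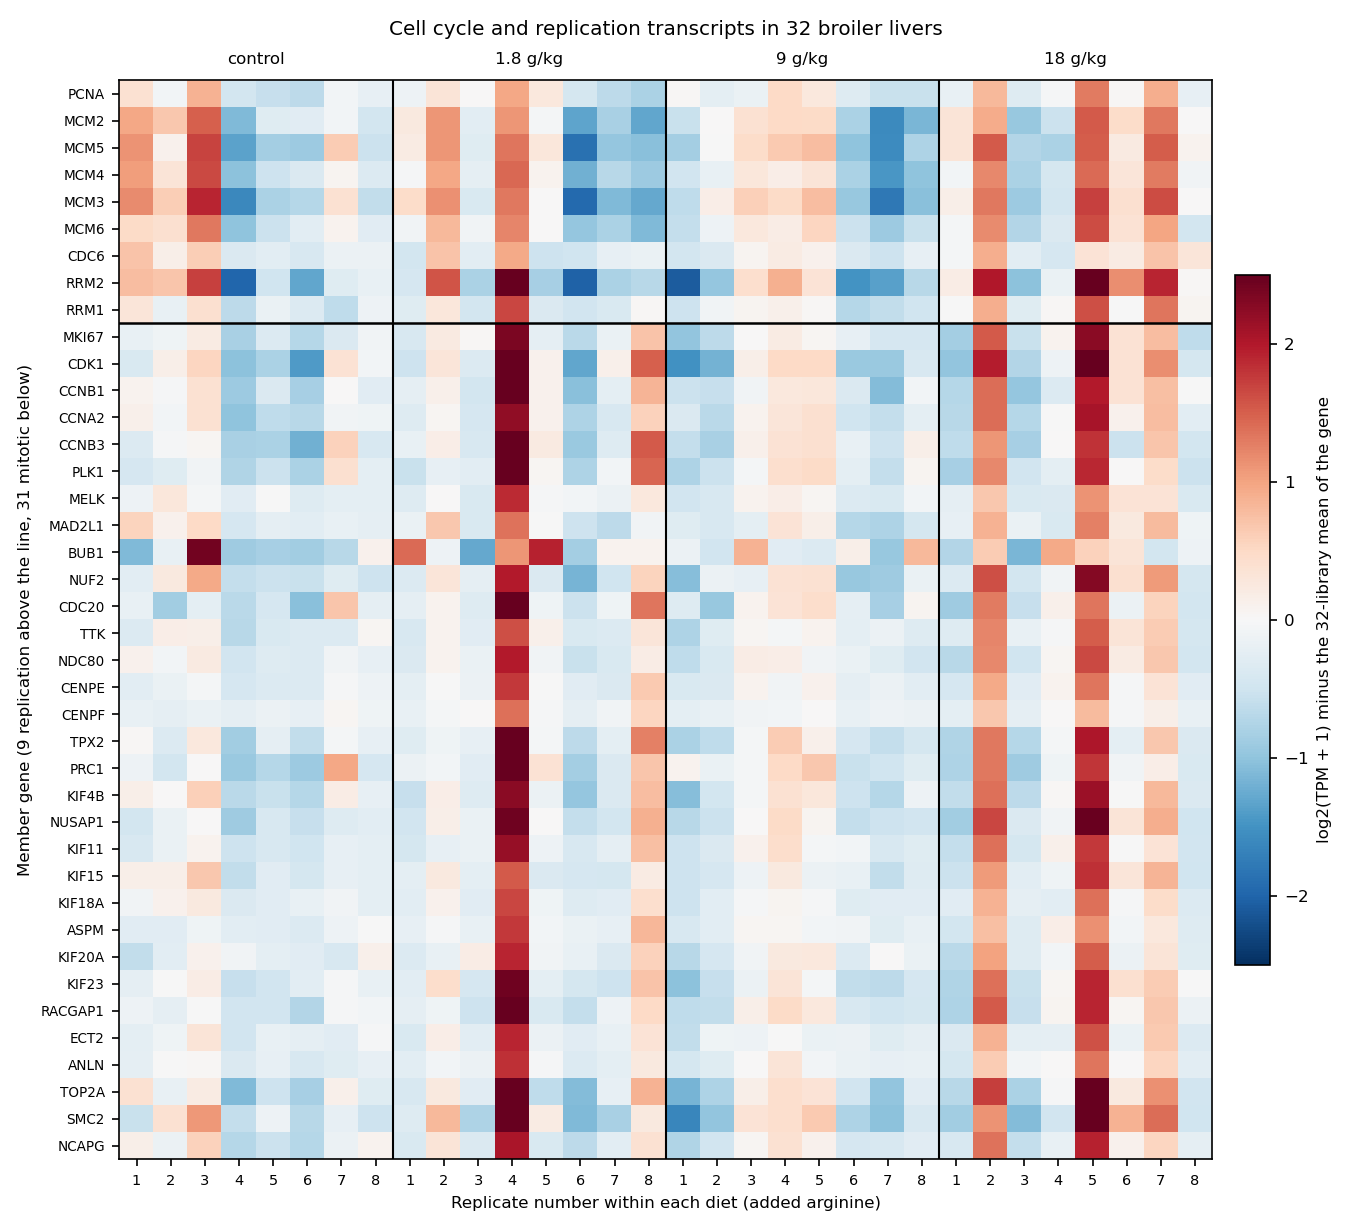
Each row is 1 of 40 genes (9 replication genes above the line, 31 mitotic genes below, KIF4A shown as KIF4B and CCNB2 as CCNB1) and each column 1 of 32 libraries, ordered by diet and replicate number. Colour is log2(TPM + 1) minus the gene's mean over the 32 libraries, and values beyond the scale take its end colour. The column of 1.8 g/kg replicate 4 is the darkest red for most mitotic genes, and the columns of 18 g/kg replicates 5 and 2 follow.

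Every member had its highest value in 1 of 3 livers. The highest value of 28 members was in 1.8 g/kg replicate 4, of 8 members (NUF2, KIF15, NUSAP1, SMC2, MCM2, MCM6, PCNA and RRM2) in 18 g/kg replicate 5, and of 4 members (BUB1, MCM3, MCM4 and MCM5) in control replicate 3. MKI67, the antigen used to mark cells in cycle, stood at 11.9 TPM in 1.8 g/kg replicate 4, 6.34 TPM in 18 g/kg replicate 2 and 11.1 TPM in 18 g/kg replicate 5. The other 29 libraries ran from 0.28 to 3.34 TPM, so 1.8 g/kg replicate 4 and 18 g/kg replicates 2 and 5 stood above all the rest for MKI67. The same 3 libraries lay above every other library for 25 of the 31 mitotic members but for 1 of the 9 replication members, RRM2. They were picked by MKI67, a mitotic member that is itself among the 25. The share of all tested genes for which these 3 libraries lie above the rest is not given here. In 1.8 g/kg replicate 4 and 18 g/kg replicates 2 and 5, 11678, 11493 and 11319 genes reached 1 TPM, against a median of 11029 over the 32 libraries.

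Most markers of T and NK cells were also above their usual level in these 3 livers. The summed TPM of 13 T and NK cell markers was 740 in 1.8 g/kg replicate 4, 470 in 18 g/kg replicate 2 and 376 in 18 g/kg replicate 5. By the mean of log2(TPM + 1) over the markers, these libraries rank 1, 2 and 3 of the 32. GNLY, a granule protein of cytotoxic lymphocytes, made up 64.0%, 66.3% and 63.2% of these sums. Of the 13 markers, 13, 13 and 12 lay above their median in the other 29 libraries, and 11, 4 and 4 lay above all of those libraries. IL7R, a cytokine receptor of T cells, was the exception in 18 g/kg replicate 5, at 8.45 TPM against that median of 9.54 TPM. The share of all tested genes that lay above the same limits in these 3 libraries is not given here. Among genes above 0 in every library, the median gene stood at 1.31, 1.14 and 1.10 times its geometric mean over the 32, in the same order. The median sum by diet was 258 in control, 241 at 1.8 g/kg, 303 at 9 g/kg and 234 at 18 g/kg. CD3E, a subunit of the T cell receptor complex, stood at 45.1, 20.2 and 28.5 TPM in these 3 libraries, against a median of 14.8 TPM in the other 29. GZMA, a protease of cytotoxic lymphocytes, stood at 51.9, 37.2 and 13.7 TPM, against a median of 5.44 TPM in the other 29. By the same mean of log2(TPM + 1), 9 B and plasma cell markers ranked 1, 5 and 3, and 12 macrophage markers 1, 3 and 9. Thrombocyte markers (9) ranked 2, 10 and 9, and cholangiocyte markers (8) ranked 4, 6 and 11. Heterophil markers (8) ranked 5, 30 and 10, stellate cell and fibroblast markers (13) 7, 11 and 15, and endothelial markers (15) 9, 22 and 24. The 14 erythroid markers ranked 20, 31 and 21 and the 15 hepatocyte markers 21, 20 and 8, in the same order of libraries. No marker of these lists was at 0 in every library. The part of these cells in the members' levels was not tested.

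The comparison of each dose with control asked whether added arginine went with more or less of these transcripts in the liver. No member passed an adjusted p of 0.05 at any dose, between doses, in the test of any difference among diets or in the linear trend with dose (limma, Benjamini-Hochberg over 11339 genes). The share of all tested genes called was 0% in each of these comparisons, so the absence of calls is no property of the members. Differences below are on log2(TPM + 1), with the dose over control, and are given ± SE.

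The MCM helicase, CDC6 and PCNA had their highest diet mean at 18 g/kg and their lowest at 9 g/kg for all 7 genes. PCNA had a lowest, median and highest library of 36.1, 52.5 and 106 TPM in control, 32.9, 55.5 and 113 TPM at 1.8 g/kg, 38.8, 50.0 and 81.4 TPM at 9 g/kg, and 45.7, 57.7 and 144 TPM at 18 g/kg. All 4 ranges overlapped, and 5 of 8 livers at 18 g/kg lay above the control median. Its difference was 0.04 ± 0.26 at 1.8 g/kg, -0.03 ± 0.26 at 9 g/kg and 0.39 ± 0.26 at 18 g/kg (limma adjusted p = 1 at 18 g/kg).

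MCM4, a subunit of the replicative helicase, had a lowest, median and highest library of 2.88, 6.23 and 23.7 TPM in control, 2.44, 6.22 and 20.2 TPM at 1.8 g/kg, 1.88, 5.27 and 8.76 TPM at 9 g/kg, and 3.53, 7.63 and 19.8 TPM at 18 g/kg. No liver at 9 g/kg reached 10 TPM, while 2 control livers, 2 at 1.8 g/kg and 3 at 18 g/kg exceeded it. Its difference at 9 g/kg was -0.50 ± 0.39 (limma adjusted p = 0.963). Leaving out control replicate 3 gave -0.28, and leaving out control replicate 4 gave -0.66. The other MCM genes, MCM2, MCM3, MCM5 and MCM6, differed by between -0.45 and -0.24 at 9 g/kg and between 0.28 and 0.47 at 18 g/kg. CDC6, the loader, was under 2 TPM in every library, with a median of 0.33 TPM in control, 0.26 TPM at 1.8 g/kg, 0.21 TPM at 9 g/kg and 0.76 TPM at 18 g/kg.

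Ribonucleotide reductase had the widest differences of the replication genes at 18 g/kg over control. RRM2, the regulatory subunit whose level follows the cycle, had a lowest, median and highest library of 1.33, 6.83 and 29.1 TPM in control, 1.26, 4.54 and 54.6 TPM at 1.8 g/kg, 1.19, 4.22 and 16.2 TPM at 9 g/kg, and 3.51, 14.5 and 89.4 TPM at 18 g/kg. The ranges overlapped, and 7 of 8 livers at 18 g/kg lay above the control median. Its difference at 18 g/kg was 1.06 ± 0.62 (95% interval -0.20 to 2.31, limma adjusted p = 1), and 0.72 without 18 g/kg replicate 5. RRM1, the large catalytic subunit, had a lowest, median and highest library of 4.43, 6.52 and 10.2 TPM in control, 5.12, 5.71 and 25.8 TPM at 1.8 g/kg, 4.19, 6.02 and 8.27 TPM at 9 g/kg, and 5.92, 7.77 and 25.0 TPM at 18 g/kg. Again 7 of 8 livers at 18 g/kg lay above the control median, with overlapping ranges. RRM1 differed by 0.63 ± 0.27 at 18 g/kg (limma unadjusted p = 0.0287, adjusted p = 1, exact permutation p = 0.049), and by 0.46 without 18 g/kg replicate 5.

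**Figure D2:**
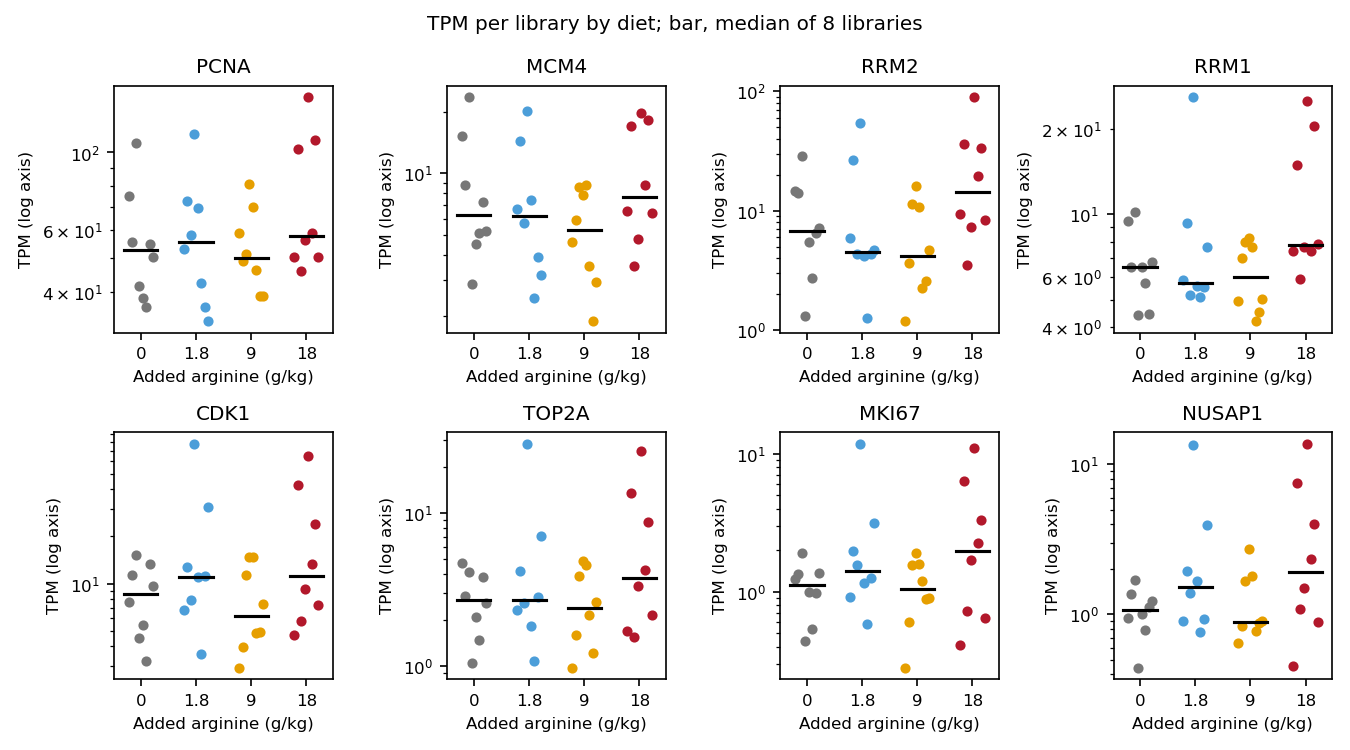
TPM on a log axis for 4 replication genes (top) and 4 mitotic genes (bottom) against added arginine in g/kg, with control at 0. Each point is 1 of 8 libraries per diet and each bar the diet's median, and in every panel the 4 diets overlap. The highest liver is a control liver for MCM4 and a liver at 1.8 or 18 g/kg in the other 7 panels.

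The cyclins, CDK1 and mitotic kinases were set apart by the same livers. CDK1, the kinase that starts mitosis, had a lowest, median and highest library of 3.19, 8.62 and 15.2 TPM in control, 3.53, 11.1 and 77.9 TPM at 1.8 g/kg, 2.90, 6.17 and 14.8 TPM at 9 g/kg, and 4.67, 11.2 and 65.1 TPM at 18 g/kg. Medians at 1.8 and 18 g/kg were nearly the same, and the highest livers of both diets lay above every control liver. CDK1 differed by 0.66 ± 0.50 at 1.8 g/kg, which was 0.31 without 1.8 g/kg replicate 4, and by 0.80 ± 0.50 at 18 g/kg (95% interval -0.22 to 1.81), which was 0.50 without 18 g/kg replicate 5.

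CCNB3, a B-type cyclin, had a lowest, median and highest library of 0.36, 1.41 and 3.63 TPM in control, 0.63, 2.12 and 20.6 TPM at 1.8 g/kg, 0.77, 2.07 and 3.10 TPM at 9 g/kg, and 0.74, 1.71 and 9.83 TPM at 18 g/kg. All diets overlapped, with 6 of 8 livers at 1.8 g/kg above the control median. Its difference at 1.8 g/kg was 0.73 ± 0.41 (limma adjusted p = 1), and 0.38 without 1.8 g/kg replicate 4. CCNA2, CCNB1, PLK1 and MELK, the other cyclins and kinases of the set, had differences of 0.28 to 0.66 at 1.8 g/kg and of 0.27 to 0.59 at 18 g/kg. The row of CCNB1 overlaps MPHOSPH10 in the reference annotation, and the strand setting of the counting is not given in the sources used here.

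Kinetochore and checkpoint genes hold chromosomes on the spindle until all are attached. CDC20, the activator of the anaphase-promoting complex, had a lowest, median and highest library of 0.54, 1.51 and 4.08 TPM in control, 1.18, 1.93 and 24.1 TPM at 1.8 g/kg, 0.64, 2.02 and 3.31 TPM at 9 g/kg, and 0.70, 2.15 and 6.96 TPM at 18 g/kg. At 1.8 g/kg 7 of 8 livers lay above the control median, and the ranges overlapped. Its difference there was 0.76 ± 0.39 (limma unadjusted p = 0.0597, adjusted p = 1), the smallest p of any member at that dose, and 0.39 without 1.8 g/kg replicate 4. CDC20 overlaps ELOVL1 in the annotation.

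MAD2L1, which holds CDC20 back until attachment is complete, had a lowest, median and highest library of 4.41, 5.25 and 9.54 TPM in control, 3.57, 5.57 and 17.3 TPM at 1.8 g/kg, 3.24, 4.66 and 8.10 TPM at 9 g/kg, and 4.51, 6.61 and 16.2 TPM at 18 g/kg. It was the steadiest tested member, with 7 of 8 livers at 18 g/kg above the control median. MAD2L1 differed by -0.28 ± 0.25 at 9 g/kg (limma adjusted p = 0.963) and by 0.31 ± 0.25 at 18 g/kg. TTK, the kinase that starts checkpoint signalling, differed by 0.55 ± 0.26 at 18 g/kg (limma unadjusted p = 0.0406, exact permutation p = 0.0676, adjusted p = 1 in both), with 7 of 8 livers above the control median. NDC80, NUF2, CENPE and CENPF, proteins of the kinetochore, had differences of 0.27 to 0.70 at 18 g/kg.

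BUB1, a checkpoint kinase, followed the other mitotic genes least closely. It was highest in control replicate 3 at 16.3 TPM and in 1.8 g/kg replicate 5 at 11.2 TPM, where MKI67 stood at 1.91 and 1.16 TPM. Its Pearson r with the other 30 mitotic members had a median of 0.38 over the 32 libraries.

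Kinesins and spindle proteins gave the largest mitotic difference at 18 g/kg. NUSAP1, which bundles spindle microtubules, had a lowest, median and highest library of 0.44, 1.07 and 1.70 TPM in control, 0.76, 1.53 and 13.5 TPM at 1.8 g/kg, 0.64, 0.89 and 2.73 TPM at 9 g/kg, and 0.45, 1.92 and 13.7 TPM at 18 g/kg. Ranges overlapped, with 6 of 8 livers at 18 g/kg above the control median. Its difference was 0.83 ± 0.39 (limma unadjusted p = 0.0396, exact permutation p = 0.0688, adjusted p = 1 in both), and 0.54 without 18 g/kg replicate 5.

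TPX2, a spindle assembly factor, had a lowest, median and highest library of 1.05, 2.21 and 3.45 TPM in control, 1.37, 2.34 and 21.9 TPM at 1.8 g/kg, 1.14, 1.77 and 4.75 TPM at 9 g/kg, and 1.21, 2.36 and 14.2 TPM at 18 g/kg. Its medians at 1.8 and 18 g/kg lay close to that of control, and 4 of 8 livers at 18 g/kg lay above the control median. It differed by 0.54 ± 0.38 at 1.8 g/kg and by 0.48 ± 0.38 at 18 g/kg, which were 0.21 without 1.8 g/kg replicate 4 and 0.23 without 18 g/kg replicate 5. The motors KIF11, KIF15, KIF18A and KIF4B, with PRC1 and ASPM, differed by 0.31 to 0.55 at 18 g/kg. PRC1 overlaps RCCD1 in the annotation.

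Cytokinesis and chromosome structure genes repeated the pattern. KIF20A, a motor of the dividing midzone, had a lowest, median and highest library of 1.71, 2.48 and 3.54 TPM in control, 2.25, 2.78 and 14.5 TPM at 1.8 g/kg, 1.58, 2.79 and 3.99 TPM at 9 g/kg, and 1.62, 2.87 and 10.8 TPM at 18 g/kg. The medians of the 4 diets lay close together, and the highest livers at 1.8 and 18 g/kg lay far above the others. KIF20A overlaps SFXN1, which had a mean of 146 TPM. It differed by 0.39 ± 0.27 at 1.8 g/kg and 0.38 ± 0.27 at 18 g/kg, which were 0.15 without 1.8 g/kg replicate 4 and 0.18 without 18 g/kg replicate 5. KIF23, RACGAP1, ECT2 and ANLN, which build and close the cleavage furrow, differed by 0.38 to 0.61 at 18 g/kg.

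TOP2A, the enzyme that untangles replicated DNA, had a lowest, median and highest library of 1.05, 2.72 and 4.69 TPM in control, 1.07, 2.71 and 28.5 TPM at 1.8 g/kg, 0.97, 2.40 and 4.84 TPM at 9 g/kg, and 1.55, 3.78 and 25.6 TPM at 18 g/kg. All ranges overlapped, and 5 of 8 livers at 18 g/kg lay above the control median. TOP2A differed by 0.43 ± 0.45 at 1.8 g/kg, which was 0.06 without 1.8 g/kg replicate 4, and by 0.74 ± 0.45 at 18 g/kg (95% interval -0.18 to 1.66), which was 0.44 without 18 g/kg replicate 5. The condensin subunits SMC2 and NCAPG differed by 0.59 and 0.49 at 18 g/kg. SMC2 overlaps PTGR1, which had a mean of 158 TPM. Across libraries, r with the overlapping protein-coding gene was 0.26 for CCNB1, 0.22 for CDC20, -0.46 for PRC1, -0.02 for KIF20A and -0.18 for SMC2. MCM4, of the replication genes, overlaps LOC124417695, a long noncoding RNA with a mean of 0.22 TPM, and their r was 0.77. What overlap adds to any member's value was not tested.

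MKI67 itself had a lowest, median and highest library of 0.44, 1.12 and 1.91 TPM in control, 0.58, 1.41 and 11.9 TPM at 1.8 g/kg, 0.28, 1.05 and 1.91 TPM at 9 g/kg, and 0.41, 1.99 and 11.1 TPM at 18 g/kg. Control and 9 g/kg livers shared the same upper end, and 5 of 8 livers at 18 g/kg lay above the control median. Its difference was 0.68 ± 0.37 at 18 g/kg (95% interval -0.08 to 1.43, limma adjusted p = 1), and 0.41 without 18 g/kg replicate 5.

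**Figure D3:**
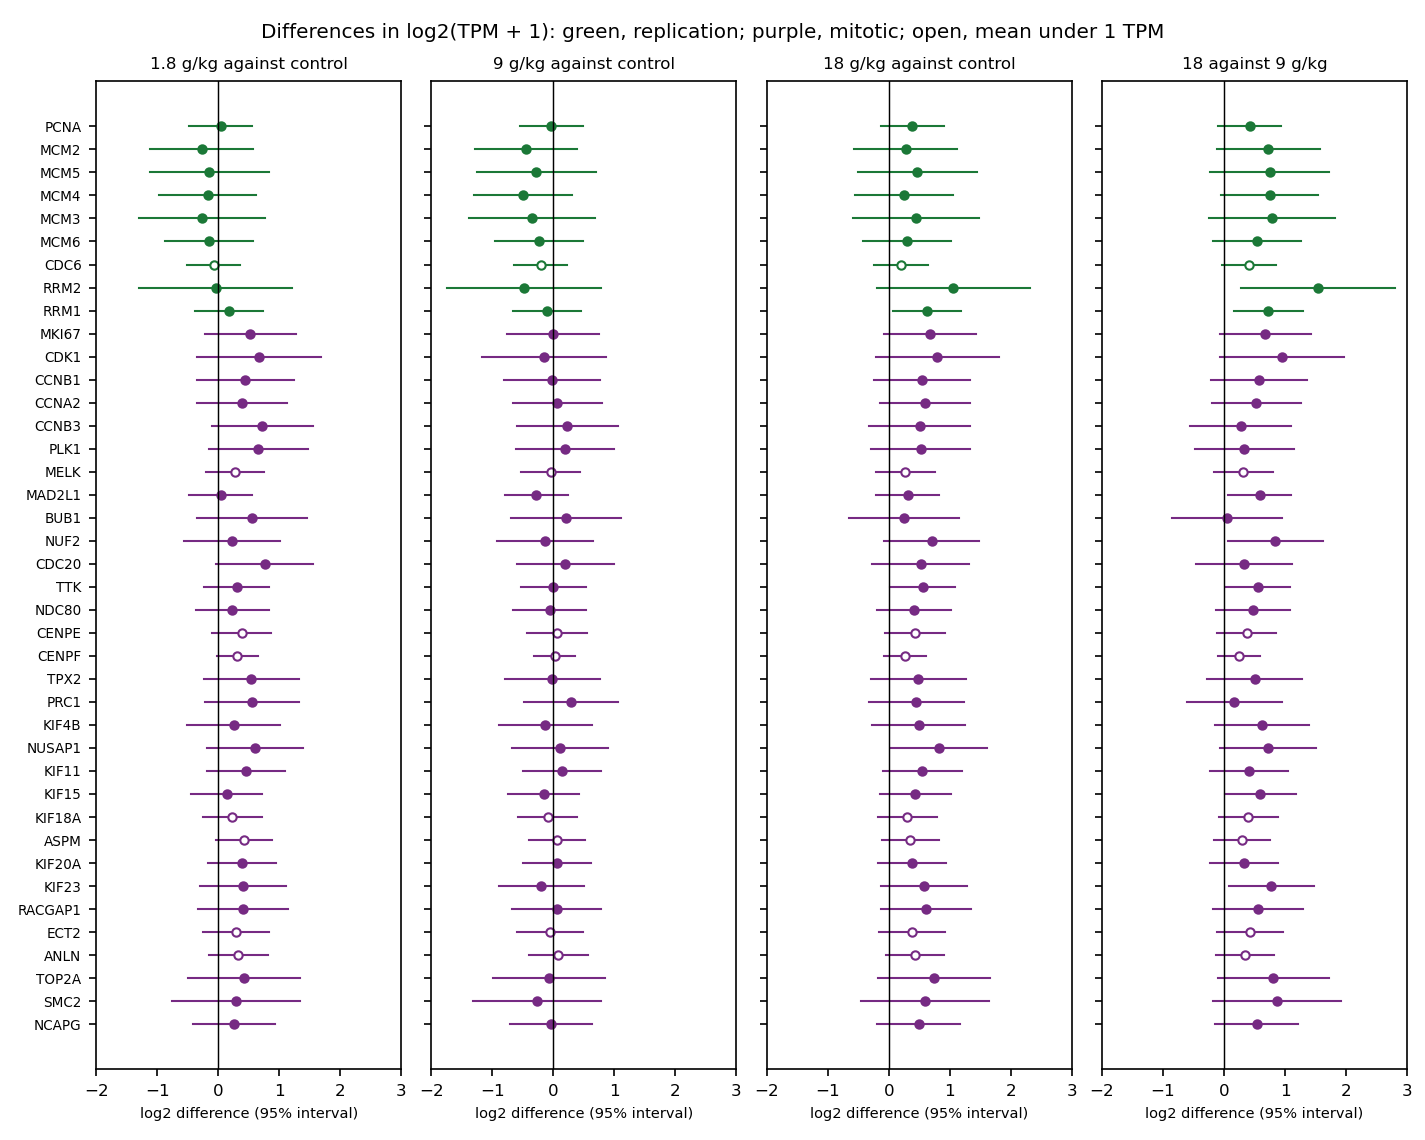
Points are differences in log2(TPM + 1) of each member for each dose over control and for 18 over 9 g/kg, with 95% intervals from limma, in green for replication and purple for mitotic genes, open where the mean is under 1 TPM. At 18 g/kg every point lies above 0, and at 9 g/kg the replication points lie below 0 while the mitotic points straddle it.

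At 1.8 g/kg all 31 mitotic members were higher than in control, with a median difference of 0.39, while 2 of the 9 replication members were higher, with a median of -0.14. Over all tested genes 59% were higher, with a median of 0.03. None of the 32 tested members had an unadjusted p under 0.05, in limma or in the exact permutation test, against 2.34% of all tested genes in limma. Without 1.8 g/kg replicate 4 the mitotic median was 0.09 with 24 of 31 higher, and the replication median was -0.36 with 0 of 9 higher. Without control replicate 3 the replication median was 0.05.

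At 9 g/kg all 9 replication members were lower than in control, with a median of -0.28, and 14 of the 31 mitotic members were higher, with a median of -0.00. Of all tested genes 50.6% were higher, with a median of 0.00. Again no tested member had an unadjusted p under 0.05 by either test, against 4.87% of all tested genes in limma. Leaving out control replicate 3 gave a replication median of -0.08 and a mitotic median of 0.06, and leaving out control replicate 4 gave a replication median of -0.47.

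At 18 g/kg all 40 members were higher than in control, with a median of 0.39 for the replication genes and 0.49 for the mitotic genes, while 55.6% of all tested genes were higher, with a median of 0.02. By limma 3 of the 32 tested members had an unadjusted p under 0.05 (RRM1, NUSAP1 and TTK), against 2.44% of all tested genes, and by the exact permutation test 1 had (RRM1). Leaving out 18 g/kg replicate 2, 5 or 7 or control replicate 4 took that limma count to 0, leaving out control replicate 1, 5, 6 or 7 took it to 1, and leaving out 18 g/kg replicate 1, 3 or 8 or control replicate 3 took it to between 6 and 9. Without 18 g/kg replicate 5 the median over the 40 members was 0.26, and all 40 remained above 0. However, 18 g/kg replicate 2, also high for most mitotic members, stayed in that fit. No fit left out both 18 g/kg replicates 2 and 5, so whether all 40 stay above 0 without both was not tested. The replication median was 0.20 without control replicate 4.

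Between doses, 18 over 9 g/kg gave the largest median difference over the 40 members, at 0.54. All 40 members were higher at 18 g/kg, by a median of 0.73 for the replication genes and 0.50 for the mitotic genes, while 54.6% of all tested genes were higher, with a median of 0.02. An unadjusted p under 0.05 was reached by 7 of the 32 tested members in limma and by 4 in the exact permutation test, against 5.69% of all tested genes in limma. The 7 were RRM2 (1.54 ± 0.62), NUF2 (0.84 ± 0.38), KIF23 (0.78 ± 0.34), RRM1 (0.73 ± 0.27), MAD2L1 (0.59 ± 0.25), KIF15 (0.59 ± 0.29) and TTK (0.55 ± 0.26), and their lowest limma adjusted p was 0.779. The number that reached that limit depended on single livers. It was 12 or 14 without 18 g/kg replicate 1 or 3, and 1 to 4 without 18 g/kg replicate 2, 5 or 7 or without 9 g/kg replicate 1, 6 or 7. Without 18 g/kg replicate 5, but with 18 g/kg replicate 2 still in, the median over the 40 members was 0.34 with 38 higher. Among the livers with HINTW at 0 it was 0.34 with 35 higher, the mitotic median was 0.27, and 0 of the tested members had an unadjusted p under 0.05. In those livers the median over all tested genes was 0.04, and 393 of the 11339 had such a p in limma.

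At 9 over 1.8 g/kg none of the 40 members was higher, with a median of -0.33, and 42% of all tested genes were. Without 1.8 g/kg replicate 4 that median was -0.09 with 6 of 40 higher. At 18 over 1.8 g/kg 30 of 40 were higher, with a median of 0.46 for the replication genes and 0.10 for the mitotic genes, and 47.7% of all tested genes were. The mitotic median was -0.12 with 5 of 31 higher without 18 g/kg replicate 5, and 0.44 with 30 of 31 higher without 1.8 g/kg replicate 4, and the median over the 40 members was -0.06 and 0.46 without these livers in turn. No tested member had an unadjusted p under 0.05 in these 2 comparisons, in the test of any difference among diets or in the linear trend, against 2.83%, 2.04%, 3.18% and 2.03% of all tested genes. The slopes on dose of all 40 members were above 0, with a median of 0.02 log2 per g/kg, and 52.1% of all tested genes had such a slope. The comparisons share control or dose livers and are not independent of each other.

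Livers with HINTW above 0 had a lower median replication level, with ranges that overlapped almost fully. The replication level of a library, the mean over the 9 members of log2(TPM + 1) minus the gene's mean, had a median of -0.51 (-1.15 to 1.2) in the 12 livers with HINTW above 0 and of 0.17 (-1.19 to 1.59) in the 20 at 0. The mitotic level, taken the same way, had a median of -0.30 (-0.66 to 1.2) in the 12 and of -0.03 (-0.63 to 2.16) in the 20. Neither difference was tested. SMC2 and MELK, both part of the mitotic level, lie on the sex chromosome Z, and their values by HINTW are not given here. Among the livers at 0 alone, the replication median at 1.8 g/kg over control was 0.23 with 9 of 9 higher, at 9 g/kg over control 0.17 with 7 of 9 higher, and at 18 g/kg over control 0.67 with 9 of 9 higher. The negative replication medians at 1.8 and 9 g/kg were thus positive in those livers. Mitotic medians among them were 0.49, 0.31 and 0.53 at 1.8, 9 and 18 g/kg, each with 31 of 31 higher. Over all tested genes the medians were 0.08, -0.06 and -0.02 in the same order, and the share that was higher is not given here. Only 6 control libraries, 5 at 1.8 g/kg, 4 at 9 g/kg and 5 at 18 g/kg enter these values. Both 1.8 g/kg replicate 4 and 18 g/kg replicate 5 are among them.

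Across livers the members were compared as a replication block and a mitotic block, which were set by function and not derived from the values. Over the 32 libraries, which share 1 value per library and a fixed TPM total, Pearson r of log2(TPM + 1) had a median of 0.88 among the 36 pairs of replication genes, 0.92 among the 465 pairs of mitotic genes and 0.68 among the 279 mixed pairs. Mixed pairs ran from 0.20 to 0.91, so the 2 blocks overlapped. MCM2 to MCM6, which form 1 helicase with MCM7, were the tightest group at 0.96 over 10 pairs. With the diet means removed the medians were 0.87, 0.92, 0.69 and 0.97. Without 1.8 g/kg replicate 4 and 18 g/kg replicates 2 and 5, a choice made after seeing the data, they were 0.86 for replication pairs, 0.77 for mitotic pairs, 0.50 for mixed pairs and 0.96 for MCM pairs.

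MKI67 tracked the mitotic block. Its Pearson r with the other 30 mitotic members had a median of 0.95 (0.38 for BUB1 to 0.98 for NUSAP1) and its Spearman rho a median of 0.85, over 32 libraries. With the 9 replication members r had a median of 0.68 (0.58 for MCM2 to 0.86 for RRM1) and rho a median of 0.64. All 39 relations had an adjusted permutation p under 0.05 for both measures, and for r also with diet means removed. The weakest was BUB1 (unadjusted permutation p = 0.0296 for r, 0.00741 for rho and 0.0426 for r with diet means removed). The share of all tested genes that would pass against MKI67 in the same way is not given here. Without 1.8 g/kg replicate 4 and 18 g/kg replicate 5, the farthest from the MKI67 median, the median r was 0.89 for the mitotic and 0.56 for the replication members.

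Outside the members, the 10 tested genes with the highest r with MKI67 over the 32 libraries were DLGAP5, HJURP, KIF2C, KPNA2, CKAP2, CDC45, NCAPD3, FAM72A, PLK4 and CENPM, at 0.97 to 0.95. The first, DLGAP5, is a spindle protein, HJURP the loader of the centromere histone, CDC45 a partner of the MCM helicase and PLK4 the kinase of centriole duplication. Their r without the 2 farthest libraries was 0.94 to 0.89.

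**Figure D4:**
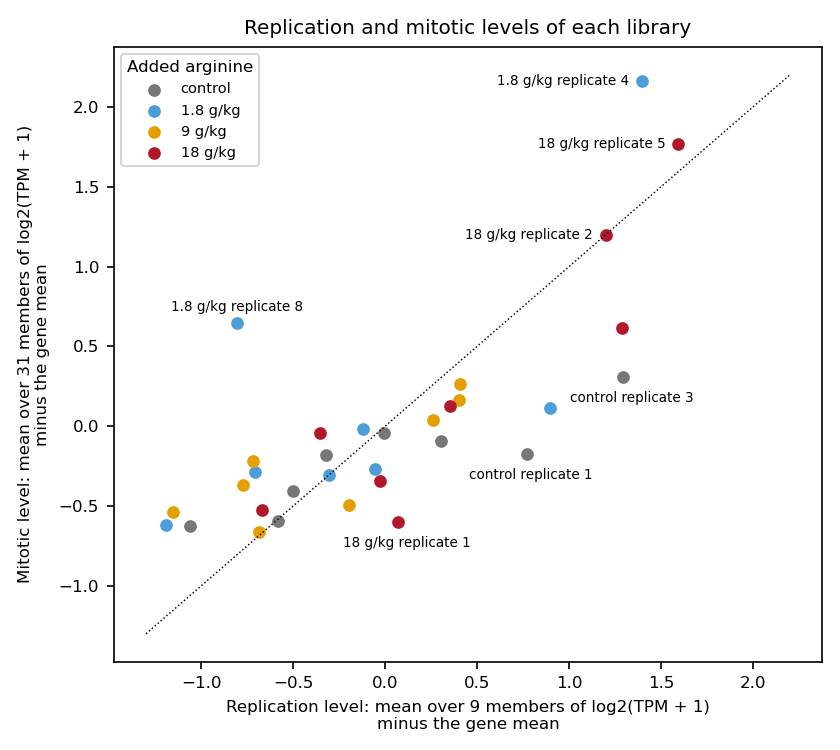
Each point is 1 of 32 libraries, with its replication level (mean over 9 members) on the x axis and its mitotic level (mean over 31 members) on the y axis, both in log2 relative to the gene means, coloured by diet. The dotted line marks equal levels, 1.8 g/kg replicate 8 lies far above it, and control replicates 1 and 3 lie below it.

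Individual livers showed the 2 blocks apart. In 1.8 g/kg replicate 8 the mitotic level was 0.65, the fourth highest of all, while the replication level was -0.81, and all 31 mitotic but 1 of the 9 replication members lay above their medians over the 32 libraries. CDK1 stood at 30.6 TPM and MCM5 at 2.75 TPM there, a ratio of 11.1, against a median ratio of 2.31 in the diet. Control replicate 3 had a replication level of 1.29, above its mitotic level of 0.31, with a CDK1 of 15.2 TPM and an MCM5 of 24.0 TPM. Both blocks were high there, as 9 of 9 replication and 29 of 31 mitotic members lay above their medians. Control replicate 1 had a ratio of 0.48 and 18 g/kg replicate 1 a ratio of 0.54, and in 18 g/kg replicate 1, 8 of 9 replication but 0 of 31 mitotic members lay above their medians.

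By diet, the replication level averaged -0.01 ± 0.77 in control, -0.11 ± 0.87 at 1.8 g/kg, -0.31 ± 0.61 at 9 g/kg and 0.43 ± 0.83 at 18 g/kg (SD, n = 8). The mitotic level averaged -0.23 ± 0.31 in control, 0.18 ± 0.88 at 1.8 g/kg, -0.23 ± 0.35 at 9 g/kg and 0.27 ± 0.85 at 18 g/kg (SD, n = 8). The means at 1.8 and 18 g/kg lay less than the SD of these diets from the control mean, and their mitotic levels were more spread than in control or at 9 g/kg. Differences between the replication and mitotic levels were not tested.

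Other genes of the cycle, from lists chosen by function, showed where the pattern extended. Of 36 other tested mitosis genes, 30, 16 and 36 were higher than control at 1.8, 9 and 18 g/kg, with medians of 0.21, -0.04 and 0.44. Of 31 other tested replication genes, 10, 3 and 28 were higher, with medians of -0.05, -0.19 and 0.21. None of these genes was called in any comparison. At 18 over 9 g/kg 11 of the 31 had an unadjusted p under 0.05 in limma, as had 5 of the 36, against the 5.69% above. How far these counts depend on single livers, as that of the members did, is not given here. Of 33 tested G1 cyclins, E2F factors, pocket proteins and inhibitors, 19, 13 and 20 were higher at 1.8, 9 and 18 g/kg over control, with medians of 0.04, -0.06 and 0.06, near those of all tested genes.

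Among these, the genes with the smallest p at 18 g/kg over control were few and none passed. CKAP2, a spindle pole protein, averaged 5.58 ± 6.31 TPM at 18 g/kg and 1.47 ± 0.93 TPM in control, and CENPO, a kinetochore protein, 2.09 ± 0.95 TPM at 18 g/kg and 1.27 ± 0.44 TPM in control (SD, n = 8). CDC45 averaged 3.23 ± 3.46 TPM at 18 g/kg and 1.23 ± 0.79 TPM in control, and FEN1, the flap nuclease that trims Okazaki fragments, 10.0 ± 5.73 TPM at 18 g/kg and 6.51 ± 3.63 TPM in control (SD, n = 8). E2F8, a repressor in the E2F family, averaged 3.41 ± 2.92 TPM at 18 g/kg and 1.52 ± 1.07 TPM in control (SD, n = 8). KIF2C, LIN37 and POLA2 differed by log2 differences of 0.62 ± 0.33, 0.34 ± 0.19 and 0.29 ± 0.18 (SE). Each of these 8 genes had a limma adjusted p of 1.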

How the data were processed

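The authors deposited 1 table of TPM per gene and library. The tools named are fastp, HISAT2, StringTie and RSEM, per the submitters' processing notes. Versions, the genome build and the strand setting are not given in the sources used here. Libraries were grouped by the dose in the labels. They do not say whether each library is a separate bird, and p-values therefore measure only the spread between libraries, which may be technical. The reference table (assembly GRCg7b) served only for names, chromosomes and overlapping genes.

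Values were log2(TPM + 1), with genes tested at a mean of at least 1 TPM. A model with 1 mean per diet was fitted in limma 3.58.1 (R 4.3.3, eBayes with trend=TRUE), called at a Benjamini-Hochberg adjusted p below 0.05, 2-sided, and tested on simulated data. Exact permutation used all 12870 splits of 8 against 8 libraries, and relations with MKI67 used 100000 permutations, adjusted over 39 relations. Members and lists were chosen with earlier results of these data known. Detailed values were given, by rule, for MKI67, the member with the highest mean TPM per role, and the 2 members with the smallest p at each dose over control, and from each other list for the 3 genes with the smallest p at 18 g/kg, of which 1 is not reported here. Alternatives changed the pseudocount, filter, scaling, block, weights, covariate, test and libraries.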

Additional observations from a re-analysis of the deposited data

Results flagged for a closer look

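In 1.8 g/kg replicate 4, a gap to the nearest of the other 7 libraries of the diet was larger, relative to the range, than Dixon's critical value for 9 of the 13 members described in detail. The values there were 11.86 TPM for MKI67, 77.9 TPM for CDK1, 21.93 TPM for TPX2, 14.53 TPM for KIF20A, 28.54 TPM for TOP2A, 24.07 TPM for CDC20, 20.58 TPM for CCNB3, 25.84 TPM for RRM1 and 13.47 TPM for NUSAP1. The mitotic level of that library, 2.16 in log2 relative to the gene means, stood apart in the same way. RRM2 at 89.42 TPM stood apart in 18 g/kg replicate 5, and CDC20 at 4.08 TPM in control replicate 7. Of 60 groups of 8 libraries examined, 12 stood out. Chance gives about 1 in 20 only where values are normally distributed. Gaps of the members were taken on TPM without logs, so that rate need not hold here. The members are also correlated, so these are not 12 separate events.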

How the results depend on the processing

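No member was called under any alternative. All genes called stayed at 0 except at 9 g/kg over control, where array weights called 8 genes and the fit on libraries with HINTW at 0 called 1; the cause was not tested. Array weights also took the tested members with an unadjusted p under 0.05 at 18 g/kg over control to 24, against 3, and at 18 over 9 g/kg to 14, against 7. The number rose over all 11339 tested genes too, to 890 against 277 and to 1164 against 645 in these comparisons. A pseudocount of 0.1 gave a median over the 40 members of 0.49 at 1.8 g/kg, -0.08 at 9 g/kg and 0.67 at 18 g/kg over control, and median-ratio rescaling gave 0.29, -0.03 and 0.45 at these doses. With each library left out in turn, the median over the 40 members ran from 0.06 to 0.40 at 1.8 g/kg, -0.12 to 0.02 at 9 g/kg and 0.26 to 0.62 at 18 g/kg over control. The mitotic median at 9 g/kg over control ran from -0.08 to 0.06. Without both 1.8 g/kg replicate 4 and 18 g/kg replicate 5, the 9 over 1.8 g/kg replication median was 0.01, against -0.14 with all libraries.

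With the replicate number as a block, 0 genes were called at each dose over control, with 320, 661 and 338 at an unadjusted p under 0.05 at 1.8, 9 and 18 g/kg. The numbers did not pair the samples: same-numbered libraries correlated by -0.28 to 0.37 in their deviations from the diet means, and 1, 2 and 1 of 8 libraries at 1.8, 9 and 18 g/kg correlated best with their own number.

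Depth is unknown with TPM alone, so values under 1 TPM (8 members by their mean) carry an unstated counting error.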

Other observations

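BUB1 was the mitotic member least like MKI67, and the genes most like it lay outside the cycle. Chosen after its values were seen, the 5 tested genes with the highest Pearson r with BUB1 over the 32 libraries were TBL1XR1 (0.89), a corepressor subunit, HDAC9 (0.85), a histone deacetylase, SEC24D (0.81), a coat protein of vesicles leaving the endoplasmic reticulum, GPAM (0.79), the first enzyme of glycerolipid synthesis, and AACS (0.78), which activates acetoacetate for lipid synthesis. Without control replicate 3 and 1.8 g/kg replicate 5, the farthest from the BUB1 median, r was 0.82, 0.75, 0.71, 0.64 and 0.67 in the same order. These are descriptions of genes picked for their high r, with no test.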
